A study of Saccharomyces cerevisiae with 16 samples.

Results

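The transcripts of 36 yeast heat shock proteins and chaperones were followed after addition of benomyl, a drug that binds tubulin and blocks microtubule assembly. The 36 genes were taken from a list of names, chosen with earlier results of these data known. Each had 1 probe among the 6321 features of the array table. By the compartment of their products, 27 are cytosolic, 6 are mitochondrial and 2 lie in the endoplasmic reticulum (ER). The remaining 1, HSF1, encodes the regulator. The study compared 3 genotypes of Saccharomyces cerevisiae: the wild type (WT), a strain deleted for YAP1 (DeltaYAP1) and a strain deleted for PDR1 (DeltaPDR1). YAP1 encodes the main transcription factor of the oxidative stress response, and PDR1 encodes a regulator of drug efflux pumps. WT was sampled at 30 s and at 2, 4, 10, 20 and 40 min, and each deletion strain at 30 s and at 2, 4, 10 and 20 min, which made 16 arrays of 2 channels. The labels give channel 1 as the strain with drug and channel 2 as the same strain with no drug named, both as total RNA. The dose of benomyl, the strain background, and whether a deletion strain was 1 clone or a pool are not given in the sources used here.

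Chaperones bind unfolded or aggregated proteins and help them refold, and many of them were named for their induction when cells are heated. Cytosolic Hsp70 proteins take their substrates from J proteins, are recharged by nucleotide exchange factors, and pass some substrates to Hsp90 with its co-chaperones. Heat shock factor, the product of HSF1, drives a large part of these genes in yeast, and the mitochondrial matrix and the ER each hold an Hsp70 system of their own.

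Each value given here is the log2 of the ratio between RNA with and without drug, relative to the mean of its array, and a value of 1 is a 2-fold difference. The log base and the direction are readings of the labels and values: natural logarithms would make every fold larger, and the opposite channel order would turn every sign. Each strain and time had 1 array, so the times served as repeats in the tests, and p-values measure the spread left among these arrays and not that among cultures. The labels do not name the dyes, so a dye bias that a probe carries on every array would add to all its values. Whether the dyes were placed alike on all arrays is not given, and such a bias was not tested. Fewer cells with a response and less RNA per cell cannot be told apart in such bulk samples. Probes of near-identical pairs (SSA1 and SSA2, HSP82 and HSC82, SSB1 and SSB2) may each read both transcripts, which was not tested.

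The coverage of the members differed between the strains. Every member had at least 1 value in WT and in the YAP1 deletion, and 26 of 36 had all 6 WT values. In the PDR1 deletion, 16 of 36 members (44.4%) had no value on any of its 5 arrays, against 9.29% of all features. Those 16 were HSP82, HSC82, SSA1, SSA2, SSA4, SSB1, SSE1, SSC1, HSP60, HSP10, MGE1, CPR6, SBA1, KAR2, HSP31 and FES1. Both Hsp90 genes, the SSA genes other than SSA3 and both parts of the mitochondrial chaperonin were thus not measured in that strain. YDJ1, SSB2, HCH1 and CUR1 had no WT value before 10 min and entered no main test. They were fitted only where the arrays of the PDR1 deletion were used alone, with 18 members tested. The chart of all members by array shows these gaps in grey.

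**Figure D1:**
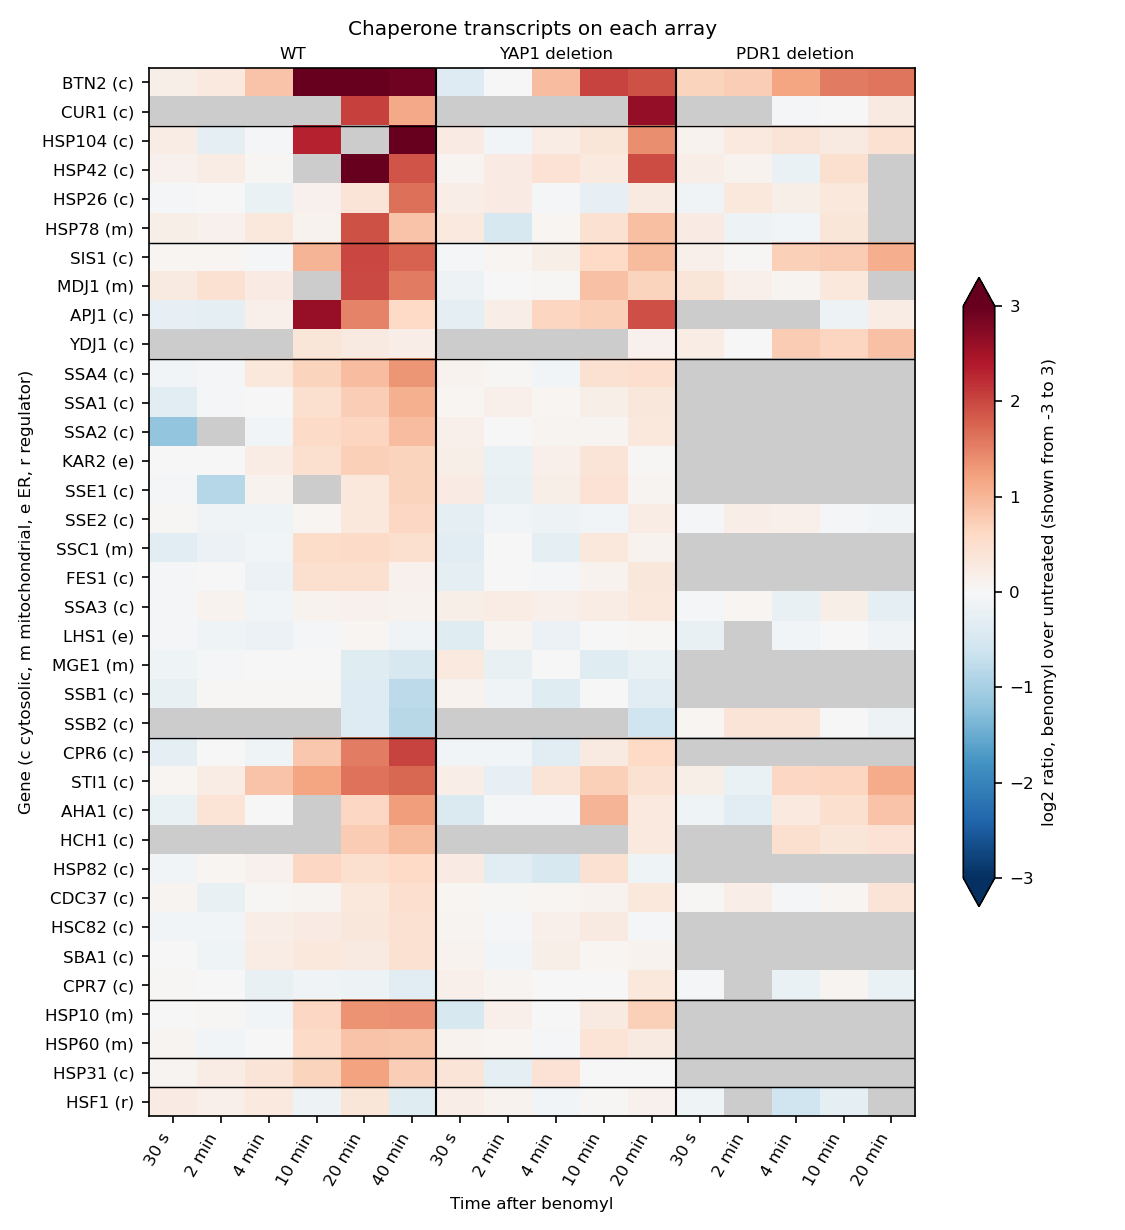
Log2 ratio of each of the 36 members (rows, grouped by role, with the compartment in brackets) on each of the 16 arrays (columns, by strain and time), with red for higher and blue for lower in drug-treated cells and grey for no value. The strongest red lies at 10, 20 and 40 min in WT, and 16 members are grey throughout the PDR1 deletion.

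In WT the members lay near 0 up to 4 min and above it from 10 min on. Their median log2 ratio was -0.02, -0.00 and 0.03 on the arrays of 30 s, 2 min and 4 min, and then 0.48, 0.61 and 0.70 on those of 10, 20 and 40 min. The median of all features stayed between -0.05 and 0.01 on these arrays. At 10 min the median member stood at the 94.5th percentile of all features on that array, and at 40 min at the 92.3rd. At 10 min 5 of 29 measured members were at least 2-fold higher, against 1.43% of all features. At 20 min the count was 11 of 35 members against 2.72%, and at 40 min 13 of 36 against 4.09%. On these 3 arrays 0 members were 2-fold lower, against 3 of 5018, 101 of 5855 and 206 of 6014 features.

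**Figure D2:**
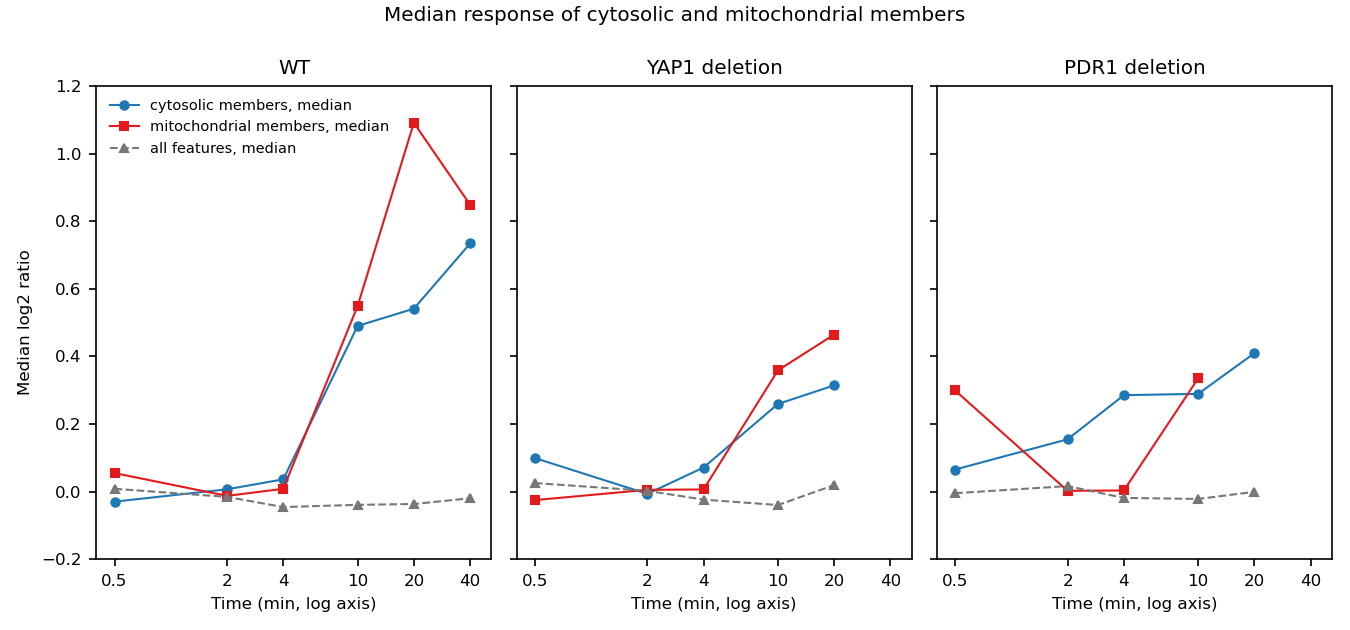
Median log2 ratio of the cytosolic members, the mitochondrial members and all features against time in minutes (log axis) in each strain, each point being 1 array. The WT mitochondrial median reaches 1.09 at 20 min, while that of the YAP1 deletion reaches 0.46; in the PDR1 deletion the mitochondrial line rests on 2 genes and has no value at 20 min.

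Both the cytosolic and the mitochondrial median left 0 between the WT arrays of 4 and 10 min, as the plot of medians by compartment shows. The cytosolic median was 0.04 at 4 min and then 0.49, 0.54 and 0.73 from 10 to 40 min. These values rest on 23, 21, 26 and 27 genes. The mitochondrial median was 0.01 at 4 min and then 0.55, 1.09 and 0.85, over 6, 5, 6 and 6 genes. MDJ1 had no value at 10 min and read 1.97 at 20 min. The step from 0.55 to 1.09 thus also holds a change in the genes measured. The mitochondrial median was thus the higher of the pair on each of these late arrays, a difference between compartments that was not tested. The ER genes parted: KAR2, the ER Hsp70, read 0.48, 0.72 and 0.67 from 10 to 40 min. LHS1, its nucleotide exchange factor, read -0.03, 0.07 and -0.10 on the same arrays. HSF1 itself read -0.16, 0.36 and -0.36, with no common sign.

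A model with separate terms for the early (2 and 4 min) and the late (10 and 20 min) arrays of each strain tested the late response (limma, Benjamini-Hochberg adjusted p over all features tested). In WT, 19 of 32 tested members rose at 10 and 20 min and 0 fell. Of all features, 5.23% were called higher and 4.35% lower. The median fitted value was 0.60 over the members and -0.04 over all features tested. By compartment, 13 of 23 cytosolic members, 5 of 6 mitochondrial members and 1 of 2 ER members rose. The count depended on the WT array at 20 min: without it 6 of 27 members that could still be tested were called, namely BTN2, HSP104, APJ1, SIS1, STI1 and CPR6. HSP42, MDJ1 and SSA2 could not be fitted then, and the remaining 10 missed the threshold. With all arrays scaled to one spread 12 of 32 were called, while the features called in either direction went from 504 to 181. The 7 calls lost were those of HSP78, SSA1, SSA2, SSC1, KAR2, FES1 and HSP82, at adjusted p from 0.074 to 0.153. The late model fitted to the WT arrays alone called 14 of 32 members, of 201 features called in either direction. It lost FES1, HSP78, HSP82, KAR2 and SSA2. Without the WT array of 10 min, HSP104 and SSA2 could not be fitted. The late WT arrays spread more widely than those of the deletion strains. Their SD over all features was 0.40 at 10 min and 0.54 at 20 min. The SD was 0.24 and 0.30 in the YAP1 deletion, and 0.31 and 0.41 in the PDR1 deletion.

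BTN2, whose product gathers misfolded proteins into deposits, had the highest values of the list. In WT it read 0.18, 0.28 and 0.85 up to 4 min, then 4.54, 4.17 and 2.91 on the arrays of 10, 20 and 40 min. The 10 min value was thus the peak, and the transcript was still well above 2-fold at 40 min. The fitted late response was 4.36 ± 0.12 (SE, n = 2 arrays, limma adjusted p = 8.8e-09), a 20.5-fold ratio. Its paralog CUR1, which serves in the same sorting, had only late values in WT, 2.06 at 20 min and 1.12 at 40 min, and could not be tested.

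HSP104 encodes the disaggregase that pulls proteins out of aggregates. In WT it read 0.21, -0.30 and -0.03 up to 4 min, then 2.30 at 10 min and 3.17 at 40 min, with no value at 20 min. HSP42, a small heat shock protein that collects unfolded proteins in cytosolic assemblies, read 0.12, 0.23 and 0.04 at the first 3 times, 3.56 at 20 min and 1.88 at 40 min, with no value at 10 min. Both rose in the late model, by 2.61 ± 0.23 and 2.73 ± 0.22 (SE, limma adjusted p = 9.5e-05 and 1.1e-04). Each of these fits rests on 1 late WT array, completed by the time term shared with the other strains. HSP78, the mitochondrial relative of HSP104, read 0.12, 1.91 and 0.85 from 10 to 40 min, and rose by 1.01 ± 0.19 (limma adjusted p = 0.0115). Its rise rests on the 20 min array, without which the late value was 0.34 and not called (0.525). HSP26, the other small heat shock protein of the list, read 0.13 at 10 min and 0.39 at 20 min and did not pass the test (0.26 ± 0.11, limma adjusted p = 0.16). It reached 1.65 only at 40 min, while HSP42, which lacks the 10 min array, was highest at 20 min.

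All 3 J proteins that could be tested rose in WT. APJ1, a cytosolic J protein, read -0.24, -0.30 and 0.14 at the first 3 times, then 2.60, 1.50 and 0.59 from 10 to 40 min, so it peaked with BTN2 at 10 min and was lower at each later time. SIS1, an essential cytosolic J protein, read 0.07, 0.05 and -0.04, then 1.02, 2.01 and 1.77 from 10 to 40 min. MDJ1, the J protein of the mitochondrial matrix, read 0.28, 0.46 and 0.24, then 1.97 at 20 min and 1.56 at 40 min, with no value at 10 min. The fitted late responses were 2.05 ± 0.29 for APJ1, 1.52 ± 0.15 for SIS1 and 2.09 ± 0.19 for MDJ1 (limma adjusted p = 0.00201, 1.5e-04 and 2.8e-04). YDJ1, the abundant general J protein of the cytosol, differed from these: its 3 WT values were 0.36, 0.26 and 0.19 at 10, 20 and 40 min, with none earlier.

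Of the Hsp70 genes and their exchange factors, 6 of 12 tested genes rose late in WT, and their median was 0.48, against 2.05 for the J proteins. SSA4, the strongly stress-inducible cytosolic Hsp70, read 0.67, 0.92 and 1.33 at 10, 20 and 40 min in WT and rose by 0.80 ± 0.12 at 10 and 20 min (limma adjusted p = 0.00545). SSA1 read 0.49, 0.74 and 1.06, and SSA2 read 0.57, 0.64 and 0.93, with fitted late rises of 0.62 ± 0.11 and 0.61 ± 0.12. SSA3, the remaining SSA gene, stayed between 0.11 and 0.14 on these 3 arrays and was not called. SSC1, the Hsp70 of the mitochondrial matrix, rose by 0.56 ± 0.12, KAR2 by 0.60 ± 0.13 and FES1, a cytosolic exchange factor, by 0.48 ± 0.11. None of SSA4, SSA1, SSC1, KAR2 and FES1 kept its call without the WT array of 20 min, where KAR2 had 0.31 (adjusted p = 0.542).

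The Hsp70 proteins bound to ribosomes read the other way late in WT. SSB1 was at 0.03, -0.40 and -0.79 at 10, 20 and 40 min, and its near-identical copy SSB2 at -0.39 and -0.84 at 20 and 40 min. MGE1, the exchange factor of the matrix Hsp70, read -0.02, -0.37 and -0.49, against the higher values of its partner SSC1. Neither SSB1 nor MGE1 passed the late test, which does not contain the 40 min array. SSE1 and SSE2, cytosolic exchange factors of the Hsp110 family, reached 0.66 and 0.62 at 40 min and did not pass the late test either.

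Of the Hsp90 group, 3 of 8 tested genes rose at 10 and 20 min in WT. STI1, which bridges Hsp70 and Hsp90, read 0.06, 0.23 and 0.87 up to 4 min, then 1.18, 1.63 and 1.73 from 10 to 40 min. It was the highest member at 4 min, ahead of BTN2 at 0.85. CPR6, a cyclophilin that binds Hsp90, read -0.13 at 4 min and then 0.82, 1.54 and 2.02 from 10 to 40 min. The fitted rises were 1.40 ± 0.13 for STI1 (limma adjusted p = 9.5e-05) and 1.18 ± 0.12 for CPR6 (3.9e-04). HSP82, the heat-inducible Hsp90, rose by 0.54 ± 0.12 (limma adjusted p = 0.0288; 0.32, 0.537, without the WT array of 20 min), while HSC82, its constitutive copy, had 0.30 ± 0.12 (0.151). CPR7, a second Hsp90 cyclophilin, stayed between -0.31 and -0.12 on the WT arrays from 10 to 40 min, opposite in sign to CPR6. AHA1, which stimulates the ATPase of Hsp90, read 0.61 at 20 min and 1.25 at 40 min, and its relative HCH1 read 0.77 and 0.94. AHA1 was not called, and HCH1 was not tested. SBA1 and CDC37, further Hsp90 co-chaperones, stayed at or below 0.50 and were not called.

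The mitochondrial chaperonin rose in both parts. HSP10 read 0.63, 1.34 and 1.38 at 10, 20 and 40 min in WT, and HSP60 read 0.57, 0.84 and 0.84. The fitted late rises were 0.98 ± 0.11 and 0.71 ± 0.12 (limma adjusted p = 9.2e-04 and 0.00825). HSP31, which encodes a chaperone that also detoxifies methylglyoxal, read 0.08, 0.21, 0.40, 0.66, 1.21 and 0.73 from 30 s to 40 min and rose by 0.94 ± 0.14 (limma adjusted p = 0.00449). Without the WT array of 20 min the late values were 0.855 for HSP10, 0.4985 for HSP60 and 0.676 for HSP31, and none of these kept its call.

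After 20 min in WT some members went higher and others lower, in shares near those of all features. Of 35 members with both values, 15 were higher at 40 min than at 20 min, against 49.3% of all features with both. Among the 11 members at least 2-fold up at 20 min, 3 were higher still at 40 min, against 28.2% of the 156 features chosen the same way. BTN2, HSP42, APJ1, HSP78 and CUR1 were lower at 40 min than at 20 min. HSP26, AHA1, CPR6, SSA4 and SSA1 were higher at 40 min. Of the 26 members with all 6 WT values, the highest value was that of 40 min for 10, of 20 min for 9, of 10 min for 4 and of an earlier array for 3 (SSB1, MGE1 and CPR7, at 0.04, 0.02 and 0.04). The highest array of the other members depends on which values they lack. With 1 array per time these are values and not tests.

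**Figure D3:**
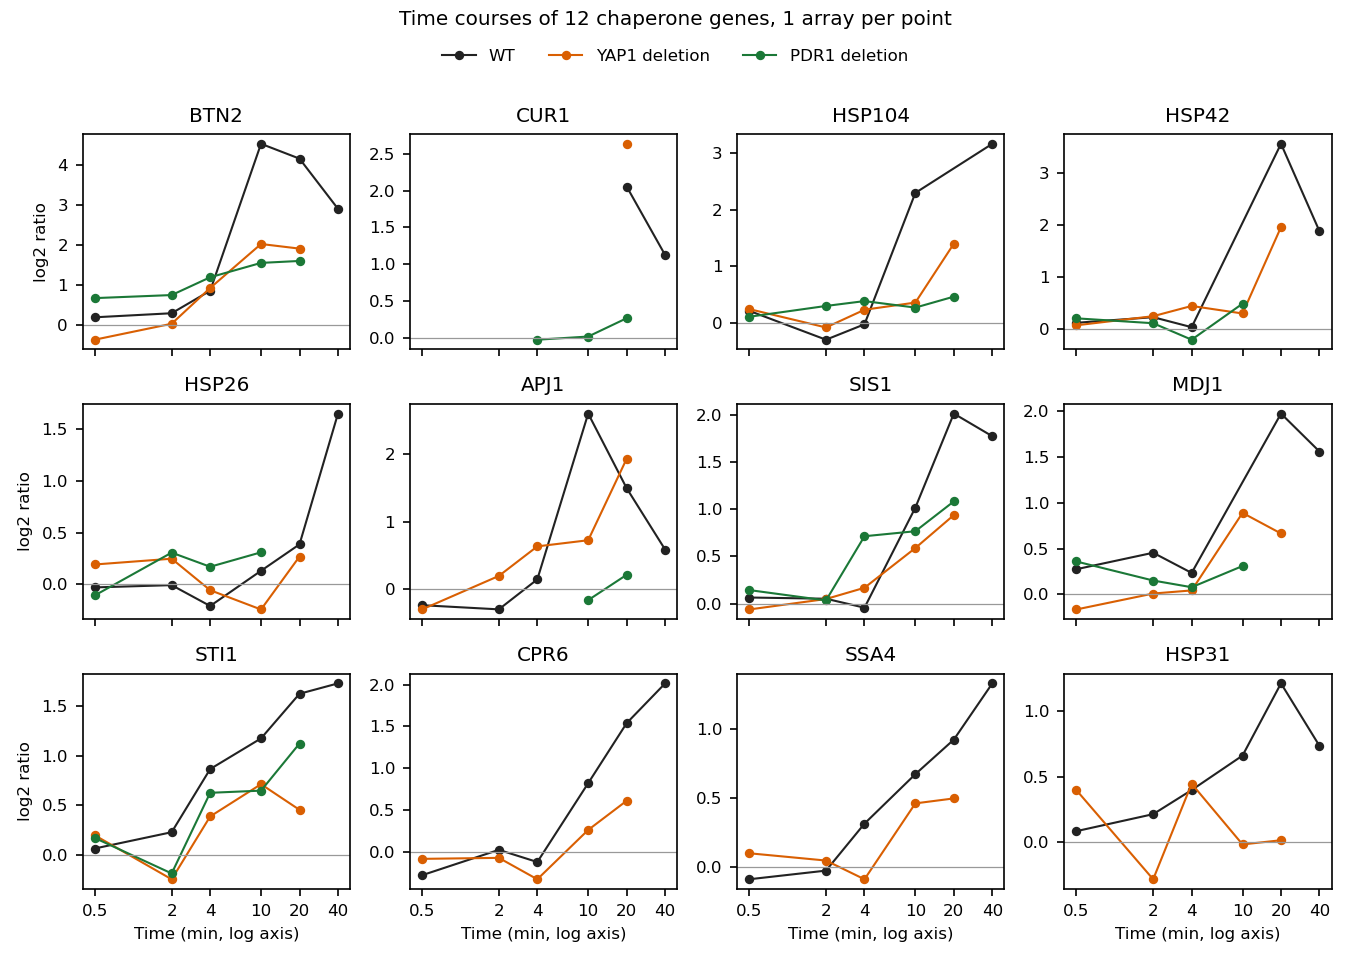
Log2 ratio against time in minutes (log axis) for 12 members in WT, the YAP1 deletion and the PDR1 deletion, each point being 1 array and each panel having its own vertical scale. BTN2 and APJ1 peak at 10 min in WT, and HSP42 (no value at 10 min) at 20 min. HSP104 (no value at 20 min), HSP26, CPR6 and SSA4 are highest at 40 min.

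Averaged over 2, 4, 10 and 20 min, 2.96% of all features were called higher in WT and 1.59% lower (limma, strain and time terms). Of 32 tested members, 11 rose and 0 fell. These were BTN2 (2.46 ± 0.34), HSP42 (1.16 ± 0.23), APJ1, STI1, MDJ1, SIS1, HSP31, HSP78, CPR6, HSP10 and SSA4, the last at 0.47 ± 0.09 (SE, n = 4 arrays, or 3 for HSP42 and MDJ1). This mean holds 2 times at which most members had no response, and its count was less steady than that of the late model. It was 7 without the WT array of 2 min and 6 without that of 4 min, of 141 and 124 features called. It was 4 without that of 10 min and 2 without that of 20 min, of 37 and 43. A fit to the 4 WT arrays alone called 0 members and 0 of all features. Over all 6 WT arrays, a slope on log2 time passed for 2 of 32 tested members, SSA2 (0.34 ± 0.04 per doubling of time) and STI1 (0.29 ± 0.04), against 0.0762% of all features (limma adjusted p = 0.0318 and 0.0332). The slope of SSA2 contains an outlying 30 s value of -1.19 and lost its call without that array (0.29, adjusted p = 0.12). Leaving out the array at 2, 4 or 20 min ended both slope calls, with 0 of all features called. Leaving out that at 10 min ended the one of STI1, and without the 30 s array 7 members were called, of 57 features.

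In the YAP1 deletion the members again stood above the other features at 10 and 20 min, at lower values than in WT. The members' median was 0.05, 0.27 and 0.31 on its arrays of 4, 10 and 20 min, and the median member stood at the 88.4th and 90.2nd percentile of its array at 10 and 20 min. At 10 min 2 of 32 members were at least 2-fold higher, against 0.311% of all features, and at 20 min 5 of 36, against 0.491%. The 5 members at 20 min were BTN2, CUR1, HSP104, HSP42 and APJ1. In the late model 4 of 32 tested members rose, against 0.228% of all features: BTN2 by 1.97 ± 0.12, HSP42 by 1.13 ± 0.12, HSP104 by 0.88 ± 0.14 and MDJ1 by 0.78 ± 0.11 (limma adjusted p = 3.4e-05, 0.012, 0.0478 and 0.0386). The count fell to 2 without any 1 of the YAP1 or PDR1 deletion arrays at 2 or 4 min, and to 1 without the YAP1 deletion array of 10 or of 20 min. Averaged over all 4 times, 0 of 32 members passed the limma test, against 0.228% of all features called higher. An unadjusted p under 0.05 was found for 12 of the 32, against 541 of 5268 features (10.3%).

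The mitochondrial genes of the YAP1 deletion had a median of 0.36 at 10 min and 0.46 at 20 min, and the cytosolic genes one of 0.26 and 0.31. HSP10 read 0.27 and 0.72, HSP78 0.46 and 0.90, and MDJ1 0.89 and 0.67 at these times. KAR2 read 0.38 at 10 min and 0.03 at 20 min. SSB1 and SSB2 were at -0.31 and -0.60 at 20 min, the same sign as in WT.

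At matched times more members were lower in the YAP1 deletion than in WT once the response had begun. At 2 min 13 of 31 members were lower and at 4 min 16 of 32, close to the 46.1% and 50.1% of all features. At 10 min 21 of 28 members were lower, against 48.6% of features, and at 20 min 29 of 35, against 44.5%. With the arrays scaled to one spread the counts were 20 of 28 and 26 of 35, against 50.6% and 46.2% of features. The 6 exceptions at 20 min, before scaling, were APJ1, CPR7, CUR1, MGE1, SSA3 and SSB1. CUR1 read 2.64 in the YAP1 deletion and 2.06 in WT, and APJ1 read 1.94 and 1.50, having been far lower in the deletion at 10 min (0.73 against 2.60).

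The difference itself passed the late test for 4 of 32 members, all lower in the YAP1 deletion, against 1.22% of all features called lower. Without the YAP1 deletion array of 10 or of 20 min, 2 members were called. BTN2 read 0.92, 2.02 and 1.91 from 4 to 20 min in the deletion, against 0.85, 4.54 and 4.17 in WT. The values were close at 4 min and far apart at 10 min, with a late difference of -2.39 ± 0.17 (SE, limma adjusted p = 5.3e-05).

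HSP104 read 0.36 at 10 min and 1.40 at 20 min in the YAP1 deletion, and only the 10 min value has a WT partner (2.30). The fitted difference was -1.73 ± 0.27 (limma adjusted p = 0.0109), and it was -1.09 (0.248) without the deletion's 10 min array. HSP42 read 0.30 and 1.96 in the deletion against 3.56 in WT at 20 min, a difference of -1.60 ± 0.25 (0.0166). MDJ1 read 0.89 and 0.67 against 1.97 in WT at 20 min, a difference of -1.31 ± 0.22 (0.0241). Each of these 3 differences thus rests on 1 late WT array. With the arrays scaled to one spread, HSP104 kept its call at -1.61, while BTN2 (-1.34, adjusted p = 0.0717), MDJ1 (-0.62, 0.621) and HSP42 (-0.39, 0.881) lost theirs. The part that the wider spread of the WT arrays has in these differences was not tested further.

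Differences of the other members did not pass. HSP31 rose in WT and had a fitted late value of -0.00 in the deletion, where it read -0.02 at 10 min and 0.01 at 20 min, against 0.66 and 1.21 in WT. That difference was -0.94 (95% interval -1.39 to -0.49, limma adjusted p = 0.0755). The differences were -0.82 for STI1 (adjusted p = 0.0814), -0.75 for CPR6 (0.0896) and -0.75 for SIS1 (0.188). APJ1 had an interval from -1.63 to 0.19, which holds both no difference and one of over 2-fold. Averaged over the 4 times, 0 of 32 members differed between the strains by the limma test, against 0.114% of all features called lower. An unadjusted p under 0.05 was found for 6 of the 32, against 506 of 5268 features (9.61%).

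**Figure D4:**
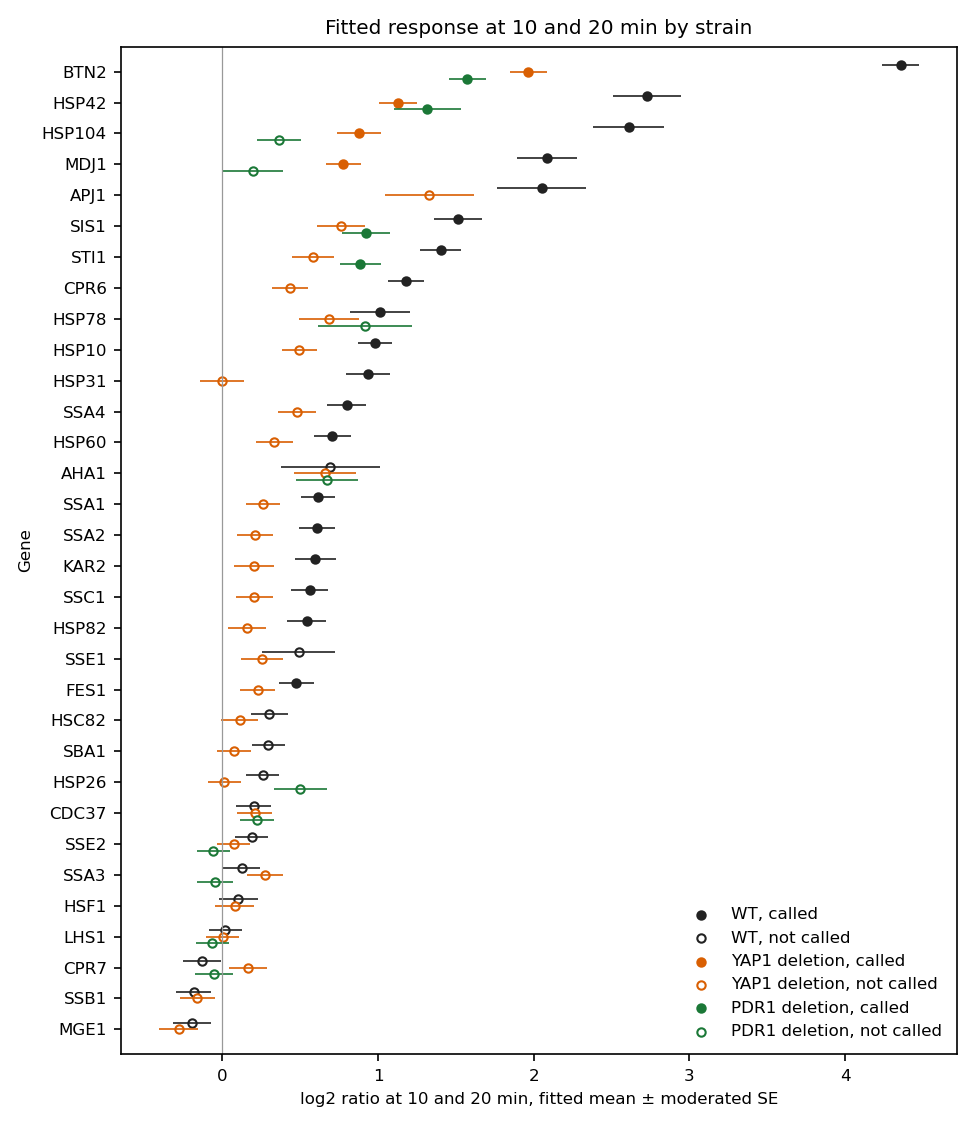
Fitted log2 ratio at 10 and 20 min with its moderated SE for each tested member in WT, the YAP1 deletion and the PDR1 deletion, filled where the limma adjusted p is under 0.05. There are 19 filled points in WT, 4 in the YAP1 deletion and 4 in the PDR1 deletion, where 14 members were tested.

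In the PDR1 deletion 14 members entered the main tests, and the members it lacks include most of the Hsp70 and Hsp90 genes. Over the measured members the median was 0.15, 0.29 and 0.40 on the arrays of 4, 10 and 20 min. At 10 min 8 of 14 members with both values were lower than in WT, against 48.7% of features, and at 20 min 10 of 14, against 47.5%. At 10 min 1 of 20 measured members was at least 2-fold higher, against 0.982% of all features, and at 20 min 3 of 15, against 1.35%. Those 3 were BTN2, SIS1 and STI1. In the late model 4 of 14 tested members rose, against 2.08% of all features, and 2 without the strain's own array of 10 or of 20 min. Averaged over the 4 times, 2 of 14 rose, SIS1 by 0.65 ± 0.15 and STI1 by 0.55 ± 0.09 (limma adjusted p = 0.0262 and 0.0062), against 2.80% of all features. Leaving out any of its 4 arrays in turn left 1 of these calls, leaving out the 20 min array of WT or of the YAP1 deletion gave 4, and without all 4, 10 or 20 min arrays 0 remained.

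BTN2 started higher in the PDR1 deletion and stayed flatter than in WT. It read 0.66, 0.74, 1.19, 1.55 and 1.60 on the arrays from 30 s to 20 min. The late response was 1.57 ± 0.12 (limma adjusted p = 1.7e-05), and the difference from WT was -2.78 ± 0.17 (1.9e-05). SIS1 read 0.14, 0.03, 0.71, 0.77 and 1.08 and STI1 read 0.17, -0.19, 0.63, 0.65 and 1.12 over the same times, with late rises of 0.93 ± 0.15 and 0.89 ± 0.13 (0.00449 and 0.0024). SIS1 was thus higher at 4 min than in WT, where it read -0.04, and lower at 20 min.

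HSP104 stayed between 0.11 and 0.46 on all 5 PDR1 deletion arrays and was not called there. Its late difference from WT was -2.24 ± 0.26 (limma adjusted p = 0.00547), so 2 of 14 tested members, BTN2 and HSP104, differed late between these strains, against 0.162% of all features called lower. The difference of HSP104 again rests on the single late WT array of 10 min. CUR1 read -0.03, 0.02 and 0.27 at 4, 10 and 20 min, against 2.06 in WT and 2.64 in the YAP1 deletion at 20 min. APJ1 read -0.16 at 10 min and 0.21 at 20 min, against 2.60 and 1.50 in WT. Neither CUR1 nor APJ1 entered the main tests of the PDR1 deletion, which need values in all 3 strains.

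HSP42, MDJ1, HSP78 and HSP26 had no value at 20 min in the PDR1 deletion. Their 10 min values were 0.49, 0.31, 0.36 and 0.31. HSP42 was called as rising in the late model (1.32 ± 0.21, limma adjusted p = 0.00788), but this fit fills the gap with the time term of the other strains. With the arrays of the PDR1 deletion alone it was 0.49 and not called (0.173). MDJ1 was lower than in WT by a fitted -1.89 ± 0.31 and missed the threshold (0.0594), as did HSP42 with -1.41 ± 0.35 (0.123). For both genes WT has only the 20 min array and the PDR1 deletion only the 10 min array of the late pair. These strains thus share no late array there, and the 2 differences rest on the change from 10 to 20 min in the YAP1 deletion. AHA1 read 0.48 and 0.86 in the PDR1 deletion, and its only late WT value was 0.61 at 20 min. Its fitted difference from WT was -0.02 (95% interval -0.85 to 0.81), which rests in part on the time term shared with the other strains. For CDC37 the difference from WT was 0.02 (-0.32 to 0.37). Averaged over the 4 times, 0 of 14 members differed from WT by the limma test, and no feature of the 4324 tested was called lower in that comparison (0%). An unadjusted p under 0.05 was found for 3 of the 14, against 617 of 4324 features (14.3%). The responses of both deletion strains were set against the same WT arrays, so the values of BTN2 and HSP104 in these comparisons are not independent.

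YDJ1 had its highest values in the PDR1 deletion, at 0.76, 0.64 and 0.89 at 4, 10 and 20 min, against 0.36 and 0.26 at 10 and 20 min in WT and 0.13 at 20 min in the YAP1 deletion. SSB2, lower in the other strains at 20 min, read -0.15 there and 0.38 at 2 and at 4 min in the PDR1 deletion. HSF1 read -0.14 at 30 s, -0.59 at 4 min and -0.27 at 10 min in the PDR1 deletion, and between -0.07 and 0.20 in the YAP1 deletion.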

How the data were processed

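Per the labels, total RNA of drug-treated and untreated cells of one strain was read on 2 channels of 16 arrays. The authors deposited a log ratio for each probe and array, read here as log2. Array means between -0.00120 and 0.00047 show that the authors centred each array; normalisation, background correction and spot filters are not given in the sources used here. Probes were named from the platform annotation and RefSeq symbols (5628 of 6338 named), and repeated probes were averaged to 6321 features. Members, lists and tests were chosen with earlier results of these data known; all 36 members are named, and other genes only where called.

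limma 3.58.1 (R 4.3.3; two-sided, Benjamini-Hochberg over all features tested, threshold 0.05) was fitted to the 12 arrays of 2, 4, 10 and 20 min, with strain and time terms, or with strain by phase and time within phase. WT and YAP1 deletion contrasts needed 3 of 4 values in both strains (5268 features), PDR1 deletion contrasts 3 of 4 in all 3 strains (4324). A WT slope on log2 time used 6 arrays and at least 5 values (5248 features). SE are moderated. Arrays per strain hold 3441 to 6112 features with a value; the number of arrays limits the precision. Alternatives changed centring, scaling, a trend along probe numbers, the 30 s array as a baseline, filters, shrinkage, the time block and each array in turn. The fits of the WT and YAP1 deletion contrasts were tested on simulated data. There each gene had the same spread on every array and a WT change alike at all times, unlike the real arrays. The PDR1 deletion contrasts and the slope were not tested in this way.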

Additional observations from a re-analysis of the deposited data

Results flagged for a closer look

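Late differences between strains that passed the test of the difference itself (limma, adjusted p under 0.05) are listed here for a closer look, since each sets the response at 10 and 20 min in a deletion strain against that in WT. In the YAP1 deletion the log2 difference was -2.39 for BTN2, -1.73 for HSP104, -1.60 for HSP42 and -1.31 for MDJ1. In the PDR1 deletion it was -2.78 for BTN2 and -2.24 for HSP104. Only BTN2 has both late WT arrays: HSP104 has that of 10 min, and HSP42 and MDJ1 have that of 20 min. Both sets of differences share the WT arrays.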

How the results depend on the processing

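Of 952 refits of the 48 member calls, 801 were still called, 151 were not and 0 changed sign. Refits in which a gene could no longer be fitted are not among them. Examples are HSP42 and MDJ1 without the WT array of 20 min, and HSP104 without that of 10 min. Other refits could hardly move: leaving out any array of 2 or 4 min left the late YAP1 deletion difference of BTN2 at -2.39. These totals thus do not measure how firm the calls are. Counts of members called moved as follows; the cause was not tested unless given. With the 30 s array of the strain subtracted, the mean responses gave 17 in WT (827 of all features), 13 in the YAP1 deletion (10 higher, 3 lower, of 1484 features) and 4 in the PDR1 deletion (of 863). The mean differences from WT gave 10 (1 higher, 9 lower, of 703 features) and 2 (of 388). The late values gave 14 for the YAP1 deletion response (13 higher, 1 lower, of 975), 8 for its difference from WT (of 260) and 4 for the PDR1 deletion's (of 248). Calls thus rose over all features, and values of a strain then share 1 array, which makes p too small. With arrays scaled to one spread, the YAP1 deletion mean response gave 1 (of 28 features) and the late WT response 12 (of 181). At that scaling the late YAP1 deletion difference gave 1 (of 35) and the slope 0 (of 1). With the array median subtracted the slope gave 5 (of 11 features), and with linear minutes 12 (11 higher, 1 lower, of 662 features). With 3 of 4 values required in all 3 strains, WT gave 6 (of 180 features) and late WT 7 (of 392), since 14 members were tested. With every value present, the PDR1 deletion response gave 4 (of 272 features) and the slope 4 (of 17), with fewer members tested. Under the same filter each late difference gave 1, of 70 features for the YAP1 deletion and of 5 for the PDR1 deletion. Using only arrays of the strains compared gave 0 in WT (of 0 features), 1 in the PDR1 deletion (of 37) and 8 for the late YAP1 deletion response (of 59). Without the time block, WT gave 1 (of 52 features) and the PDR1 deletion 0 (of 130). Leaving out 1 array or time in turn gave 2 to 14 in WT, 0 to 1 in the YAP1 deletion and 0 to 4 in the PDR1 deletion, with 0 to 0 for both mean differences. For late values it gave 6 to 19 in WT, 1 to 6 in the YAP1 deletion and 2 to 4 in the PDR1 deletion, with 2 to 5 and 2 to 2 for their differences, and 0 to 7 for the slope. Where this leaves 1 late array in a strain, that array is assumed to vary like the others. No paired analysis was possible because each group has 1 array; time served as the block. Without dose, dye or signal over background, weak spots cannot be judged.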

Other observations

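Further lists of folding genes were read from the same fits, in which 5.23% of all features were called higher late in WT. A list of other cytosolic chaperones and co-chaperones also holds some genes of other roles, and 3 of its 20 tested genes rose late in WT. These were HSP12, a membrane-associated stress protein (1.33 ± 0.36, limma adjusted p = 0.0453), MBF1, a transcriptional coactivator (1.30 ± 0.15, 4.0e-04), and JJJ1, a J protein of ribosome assembly (0.79 ± 0.19, 0.0345). MBF1 also rose late in the PDR1 deletion, by 0.96 ± 0.15 (0.0035). Of 14 tested ER folding genes, 1 rose late in WT: ERO1, the oxidase that supplies disulfide bonds in the ER (2.19 ± 0.21, 9.5e-05). The median of that list was -0.17. JEM1, an ER J protein, was the 1 gene of that list with a late difference between the YAP1 deletion and WT, 0.97 ± 0.20 (0.0499), higher in the deletion. In the mean PDR1 deletion response HSP30, a plasma membrane stress protein, rose by 0.38 ± 0.10 (0.0454), while MDJ2, a mitochondrial J protein, fell by 0.38 (0.0454) and MPD2, an ER disulfide isomerase, fell by 0.37 (0.0498). Of 9 tested other mitochondrial chaperones, 0 were called late in WT by limma, beside the 5 of 6 listed above. Of 12 tested genes of the cytosolic chaperonin TRiC and of prefoldin, 0 were called in any comparison, and their late WT median was 0.02.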
